A study of Mus musculus with 6 samples.

Results

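The mitochondrial genome transcripts are the rows of the deposited gene table that lie on chromosome MT: 37 of 54532 rows, made up of 13 mRNAs, 2 rRNAs and 22 tRNAs. They were chosen by chromosome alone and sorted into classes by the biotype given in the table, so no measured value entered the choice. The cells were RAW264.7, a virus-transformed mouse macrophage line, grown for 3 days on CaP-coated zinc alloys and lysed in TRIzol. The 3 groups were CaP Zn, the alloy with no added element in its name, CaP Zn0.8Mn, which adds manganese, and CaP Zn0.8Mn0.1Li, which adds manganese and lithium. Each group had 2 libraries of polyadenylated RNA. All groups carried the CaP coating and the zinc base, and cells grown on plastic or on an uncoated alloy were not analysed here. The stated aim of the series concerns how these alloys influence macrophage polarization and bone integration, and the question asked of the mitochondrial rows here is whether their level or composition differed between the alloys.

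The mammalian mitochondrial genome is a small circle present in many copies per cell. It is transcribed from both strands into long precursors that hold several genes each. The tRNAs lie between most of the mRNAs and rRNAs, and cutting them out frees the neighbouring transcripts, which then receive short poly(A) tails. Its mRNAs encode the core subunits of respiratory complexes I, III and IV and of ATP synthase, complex V, while all remaining subunits, and the proteins that transcribe, process and translate these RNAs, come from nuclear genes.

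Total counts ranged from 14944070 to 17709290 per library, and 23 of the 37 mitochondrial rows (12 mRNAs, both rRNAs and 9 tRNAs) were among the 13156 rows that passed the filter on low counts. Replicate 1 of CaP Zn0.8Mn stood apart from the other 5 libraries across the whole table, so each comparison that uses it is given with and without it. Of 10 macrophage markers, 10 passed the filter, with a summed level of 10905 CPM (counts scaled to library size with TMM factors) in that library and 11307 to 17011 in the others. Lyz2 makes up most of that sum, and 6 of the 10 lay above all other libraries in replicate 1 and 4 below, with a median log2 ratio of 0.72. Among them Lyz2, lysozyme, was at 5861 CPM in it against 9182 to 14549, and Csf1r, the receptor for macrophage colony-stimulating factor, was at 1598 against 319 to 374. Markers of epithelial cells were at 0 in every library, and those of fibroblasts, T cells, B cells, erythroid and endothelial cells summed to at most 0.452 CPM in any library. The neutrophil gene S100a8 was at 0.0661 CPM in replicate 1 and 0.699 to 2.17 in the others. Nothing in the labels says that the libraries of an alloy came from different cultures, so p-values measure only the spread between these libraries.

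Mitochondrial rows took up a near constant share of the counts in 5 libraries and 3.92 times their mean in the sixth. They held 2.06% and 2.05% of all counts in CaP Zn, 7.88% and 2.15% in CaP Zn0.8Mn, and 1.98% and 1.82% in CaP Zn0.8Mn0.1Li (replicates 1 and 2 in each group, also below). The 95% Wilson interval of the 7.88% was 7.87% to 7.90%, and like every interval here it covers counting error only. Most of this was mRNA, at 1.99% ± 0.00682 (SD, n = 2) in CaP Zn, 4.79% ± 3.84 in CaP Zn0.8Mn and 1.85% ± 0.108 in CaP Zn0.8Mn0.1Li. The 2 rRNAs gave 0.0543% and 0.0506%, then 0.350% and 0.0615%, then 0.0451% and 0.0361% across the same libraries. All 22 tRNAs together gave 0.0125% and 0.00915%, then 0.0296% and 0.00972%, then 0.00769% and 0.00768%. In this share of counts, both CaP Zn0.8Mn0.1Li libraries lay below both CaP Zn libraries in each class. Replicate 1 of CaP Zn0.8Mn lay above all others. For the mRNAs, the lower value in CaP Zn0.8Mn0.1Li depended on the scaling. Their summed CPM overlapped, at 18995.3 and 20159.5 in CaP Zn against 19762.5 and 17719.8 in CaP Zn0.8Mn0.1Li. The summed CPM of the rRNAs and of the tRNAs did not overlap. An exact permutation test of 2 libraries against 2 cannot give a two-sided p below 0.333, so no test was made of these shares. In bulk RNA, fewer cells with a high mitochondrial content and less mitochondrial RNA per cell cannot be told apart.

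The level per base, as FPKM (fragments per kilobase of gene, scaled to the library's depth), set the 15 mRNAs and rRNAs far apart. mt-Co1, the catalytic subunit of cytochrome c oxidase (complex IV), was the most abundant in all 6 libraries: 9853 and 11034 FPKM in CaP Zn, 23814 and 11757 in CaP Zn0.8Mn, and 11133 and 9731 in CaP Zn0.8Mn0.1Li. Its other 2 mitochondrial partners in complex IV were much lower. mt-Co2, the subunit that accepts electrons from cytochrome c, was at 34.1 and 31.7, then 350 and 42.7, then 28.1 and 27.4 FPKM. mt-Co3, which completes the membrane core, was at 15.5 and 16.3, then 230 and 20.3, then 15.8 and 15.5 FPKM. So mt-Co1 gave 78.4% to 85.2% of all mitochondrial counts in 5 libraries, but 48.5% in replicate 1 of CaP Zn0.8Mn.

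Complex I, which takes electrons from NADH, has 7 mitochondrial subunits. mt-Nd1, which helps form the quinone site, was at 797 and 569 FPKM in CaP Zn, 8614 and 609 in CaP Zn0.8Mn, and 417 and 439 in CaP Zn0.8Mn0.1Li. mt-Nd5, a proton-pumping subunit, was at 565 and 521, then 4498 and 537, then 454 and 455 FPKM. mt-Nd2 and mt-Nd4, the other large pumping subunits, ranged from 224 to 378 and from 220 to 287 FPKM in the 5 libraries other than replicate 1 of CaP Zn0.8Mn and were at 4864 and 2806 in that library. The small subunits mt-Nd3 and mt-Nd4l were at 1.11 to 2.24 and at 1.63 to 4.12 FPKM in the 5 libraries. Among mt-Nd1, mt-Nd5, mt-Nd6 and mt-Cytb the ranges over those 5 libraries overlapped and the order differed between libraries: mt-Nd1 ranked second in 3 of them and mt-Nd5 in both of CaP Zn0.8Mn0.1Li. mt-Cytb, cytochrome b and the sole mitochondrial subunit of complex III, was at 577 and 455, then 6471 and 495, then 358 and 389 FPKM.

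mt-Nd6 is the single mRNA on the minus strand, and its gene overlaps mt-Nd5 on the plus strand by 14 bases. The FPKM ratio of mt-Nd6 to mt-Nd5 was 0.901 and 0.943 in CaP Zn, 0.884 and 0.883 in CaP Zn0.8Mn, and 0.947 and 0.944 in CaP Zn0.8Mn0.1Li, so the pair moved together also in replicate 1 of CaP Zn0.8Mn. Whether the counting used strand was not stated, and antisense reads over mt-Nd6 cannot be told apart from its own. The mRNAs of complex V were low: mt-Atp6, the channel subunit of ATP synthase, was at 22.2 and 25.6, then 163 and 37.9, then 26.2 and 22.1 FPKM. mt-Atp8, a short subunit that shares 43 bases with mt-Atp6, had 4 to 9 counts per library and was not tested.

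**Figure D1:**
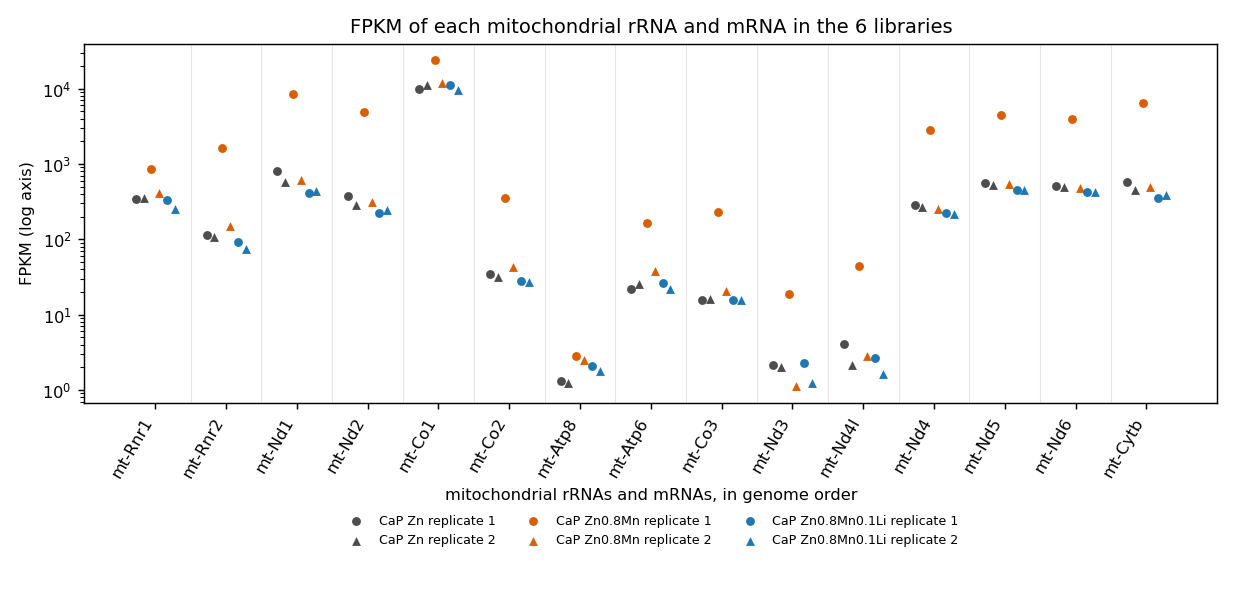
FPKM (log axis) of the 2 mitochondrial rRNAs and 13 mRNAs in genome order; each point is a library, its colour the alloy and its shape the replicate. Replicate 1 of CaP Zn0.8Mn (orange circle) is the highest in all 15, from 2.84 for mt-Atp8 to 23814 for mt-Co1, while the other 5 libraries lie close together.

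The low level of mt-Co2, mt-Co3, mt-Atp6, mt-Nd3 and mt-Nd4l went with sequence that these genes share with nuclear copies. On mouse chromosome 1, minus strand, 7 unprocessed pseudogenes lie at chr1:24611535-24616197 (4663 bases, GRCm38), each a row of the same count table. Aligned to their mitochondrial genes, the copies of mt-Co2 (Gm28661, 681 bases), mt-Atp6 (Gm10925, 678), mt-Co3 (Gm28437, 783), mt-Nd4l (Gm10222, 294) and mt-Nd4 (Gm28439, 876) had no difference, that of mt-Nd3 (Gm28438, 345) had 1 and that of mt-Co1 (Gm29216, 492) had 6. Reads from such stretches cannot be assigned to one locus by sequence, so levels of these rows are uncertain. The first 60 aligned bases of 3 pairs are shown to make this visible, 5′ to 3′ on the gene's strand, from the GENCODE M21 transcripts, with differing bases in capitals. They lie at MT:6381-6440 for mt-Co1, MT:7013-7072 for mt-Co2 and MT:9459-9518 for mt-Nd3, on the plus strand.
mt-Co1: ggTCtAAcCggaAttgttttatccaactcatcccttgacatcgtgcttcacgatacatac
Gm29216: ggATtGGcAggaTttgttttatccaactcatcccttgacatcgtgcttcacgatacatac
mt-Co2: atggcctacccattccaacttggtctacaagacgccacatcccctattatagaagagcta
Gm28661: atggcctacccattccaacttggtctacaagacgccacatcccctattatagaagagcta
mt-Nd3: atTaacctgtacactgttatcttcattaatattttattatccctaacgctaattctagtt
Gm28438: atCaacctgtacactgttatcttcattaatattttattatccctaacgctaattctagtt

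Of all 50-base windows in mt-Co2, 100% were also found in another annotated transcript, and the shares were 99.9% in mt-Co3, 99.5% in mt-Atp6, 98.8% in mt-Nd4l and 98.0% in mt-Nd3. These 5 mRNAs spanned 1.11 to 42.7 FPKM in the 5 libraries. The share was 0% in mt-Nd1, mt-Nd6 and mt-Cytb, 7.61% in mt-Nd5 and 8.19% in mt-Nd2, and these 5 spanned 224 to 797 FPKM, with no overlap between both sets. mt-Co1 (51.1%) and mt-Nd4 (62.2%) stood at high levels with about as much shared as unique sequence. mt-Atp8 had no shared window yet a mean over the 5 libraries of 1.78 FPKM, next to mt-Nd3 at 1.74. In the mitochondrial genome, mt-Atp8 starts in the 230 bases between mt-Co2 and mt-Atp6. Their copies on chromosome 1, Gm28661 and Gm10925, have a gap of 233 bases between them. No annotated transcript covers that gap, so the search did not read it. Whether it holds a counterpart of mt-Atp8 was not checked. The 43 bases that mt-Atp8 shares with mt-Atp6 are fewer than a 50-base window. These are descriptions across 13 genes, and the part of shared sequence in the levels was not tested.

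**Figure D2:**
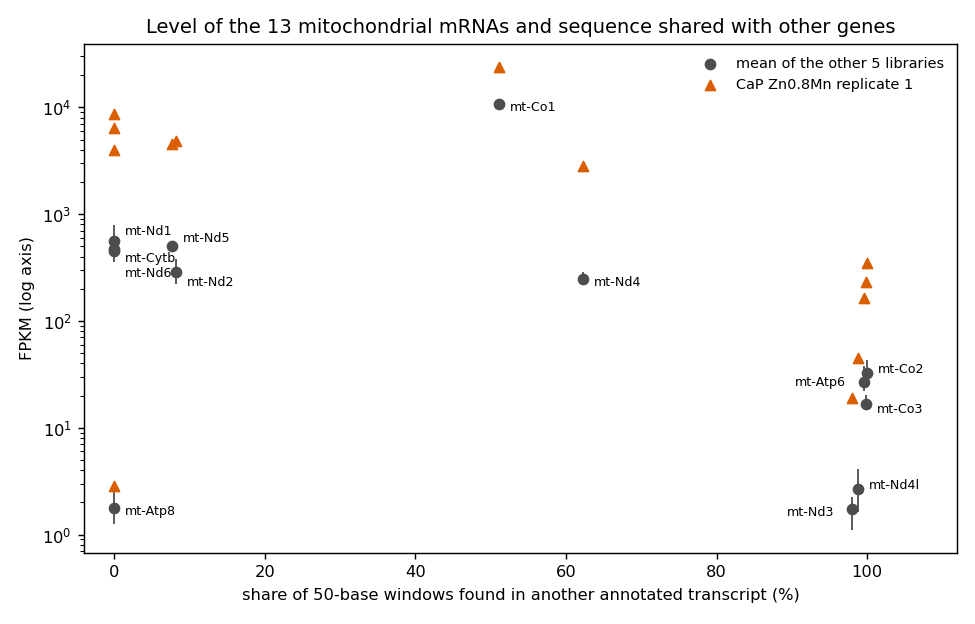
FPKM (log axis) of the 13 mitochondrial mRNAs against the percentage of their 50-base windows found in another annotated transcript; grey points are means and lines the range of 5 libraries, orange triangles are replicate 1 of CaP Zn0.8Mn. Apart from mt-Atp8, the mRNAs with at least 98.0% shared windows lie lowest in both, at 1.11 to 42.7 FPKM in the 5 libraries.

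Counts given to the copies moved with the mitochondrial rows. Gm10925, the copy of mt-Atp6, was at 23.8 and 21.6 CPM in CaP Zn, 262 and 30.3 in CaP Zn0.8Mn, and 22.1 and 19.0 in CaP Zn0.8Mn0.1Li. Gm28661, the copy of mt-Co2, was at 22.6 and 18.9, then 105 and 21.6, then 16.7 and 17.0 CPM. All 7 copies were highest in replicate 1 of CaP Zn0.8Mn, by 2.0 times (Gm29216) to 23.9 times (Gm28439) the mean of the other 5 libraries. Within a pair, the copy took between 0.0928% of the summed level (Gm29216 with mt-Co1) and 97.0% (Gm28438 with mt-Nd3). In the 5 libraries other than replicate 1 of CaP Zn0.8Mn, mt-Co2 and its copy summed to 35.9 to 50.9 CPM. The sums were 34.2 to 56.2 for mt-Atp6, 21.3 to 33.2 for mt-Co3, 9.60 to 21.2 for mt-Nd3 and 2.14 to 4.89 for mt-Nd4l. There mt-Nd1 alone was at 402 to 772 CPM, so adding the copies did not bring these rows to its level. With both rows of a pair summed, replicate 1 stood at 9.03 times the mean of the other 5 for mt-Atp6 and its copy, against 6.22 times for mt-Atp6 alone, and at 8.36 times for mt-Co2 and its copy, against 10.9 times for mt-Co2 alone.

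Replicate 1 of CaP Zn0.8Mn, the library that stood apart, was the highest in 22 of the 23 tested rows, beside 5525 of all 13156. It did not exceed the others by a common factor. In CPM, it reached 17.2 times the mean of the other 5 libraries for mt-Nd2, 17.1 times for mt-Nd4l, 15.5 times for mt-Nd1, 14.5 times for mt-Cytb and 14.1 times for mt-Co3. The ratio was 11.5 for mt-Nd4, 9.05 for mt-Nd5 and 8.68 for mt-Nd6, and only 2.27 for mt-Co1. mRNAs other than mt-Co1 together were 0.240% to 0.378% of all counts in the 5 libraries and 3.68% in this one, 12.5 times the mean of those 5. The FPKM of mt-Co1 was accordingly 2.76 times that of mt-Nd1 in this library, and 12.4 to 26.7 times in the others. Despite this the order of the 37 rows by FPKM stayed much alike, with a Spearman coefficient of 0.932 to 0.964 between this library and each other one, and 0.968 to 0.989 among the other 5.

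The 2 rRNAs, which form the core of the mitochondrial ribosome and are transcribed one after the other, parted in that library. mt-Rnr1, the 12S rRNA of the small subunit, was at 334 and 341 CPM in CaP Zn, 839 and 397 in CaP Zn0.8Mn, and 315 and 243 in CaP Zn0.8Mn0.1Li. mt-Rnr2, the 16S rRNA of the large subunit, was at 183 and 173, then 2616 and 236, then 147 and 118 CPM. Per base, mt-Rnr2 was below mt-Rnr1 in 5 libraries, with an FPKM ratio of 0.281 to 0.358, and above it in replicate 1 of CaP Zn0.8Mn, at 1.88. Both CaP Zn0.8Mn0.1Li libraries held less of each rRNA than any library of the other alloys. The libraries were made from polyadenylated RNA, so these values describe the rRNA that was captured and not the amount in the cell.

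**Figure D3:**
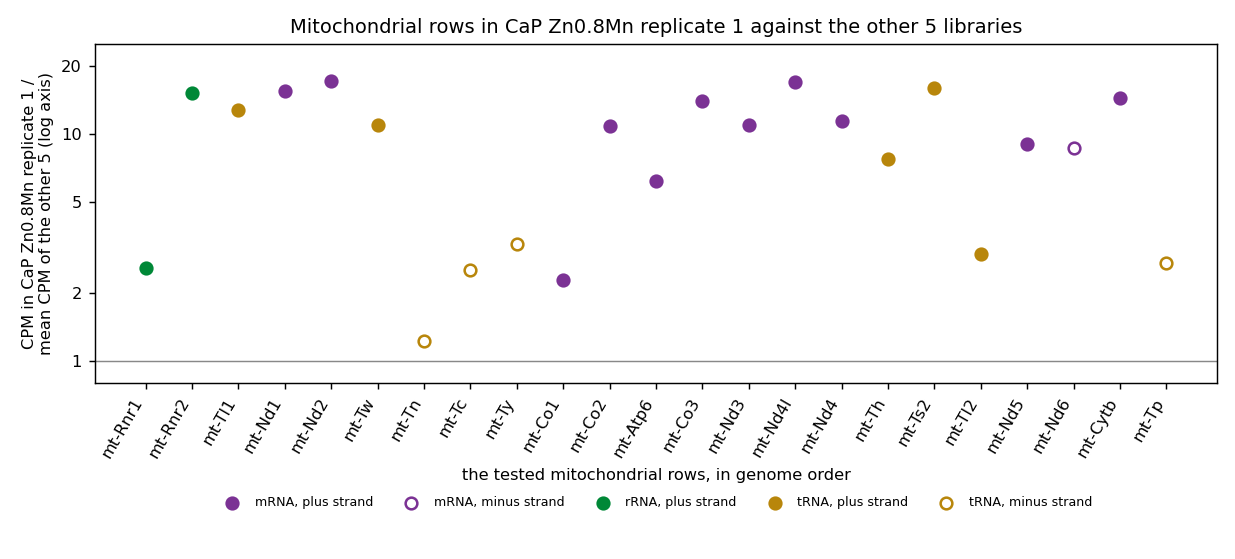
CPM in replicate 1 of CaP Zn0.8Mn divided by the mean CPM of the other 5 libraries (log axis) for the 23 tested mitochondrial rows in genome order; colours mark mRNA, rRNA and tRNA, and open symbols mark genes on the minus strand. The ratios run from 1.23 for mt-Tn to 17.2 for mt-Nd2, with mt-Rnr1 at 2.58 and mt-Rnr2 at 15.3.

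The tRNAs, adaptors for mitochondrial translation, were thinly covered. 5 of the 22 (mt-Tf, mt-Tq, mt-Tm, mt-Td and mt-Tg) were at 0 in all libraries, where 3 counts correspond to 0.161 to 0.198 CPM, and 9, these 5 included, never passed 2 counts. mt-Tp, mt-Tc and mt-Tn, for proline, cysteine and asparagine, all on the minus strand, held 85.2% to 89.6% of the tRNA counts in 5 libraries and 67.2% in replicate 1 of CaP Zn0.8Mn. mt-Tp had 1089 and 816 counts in CaP Zn, 2136 and 905 in CaP Zn0.8Mn, and 802 and 712 in CaP Zn0.8Mn0.1Li. mt-Tn had 375 and 216, then 272 and 226, then 186 and 221, so the library that was highest elsewhere was not the highest here. On the plus strand mt-Tl1, for leucine, which joins mt-Rnr2 to mt-Nd1, had 39 and 16, then 240 and 27, then 11 and 11 counts. mt-Tw, for tryptophan, next to mt-Nd2, had 65 and 38, then 480 and 54, then 44 and 38. These 5 genes are shown because the first 3 carry most tRNA counts and the last 2 adjoin mRNAs described above; the sequences are from GENCODE M21, with the anticodon in capitals.
mt-Tp: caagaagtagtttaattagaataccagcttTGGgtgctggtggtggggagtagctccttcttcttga
mt-Tc: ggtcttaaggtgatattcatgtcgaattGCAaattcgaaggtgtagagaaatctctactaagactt
mt-Tn: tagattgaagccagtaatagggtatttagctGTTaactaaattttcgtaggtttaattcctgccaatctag
mt-Tl1: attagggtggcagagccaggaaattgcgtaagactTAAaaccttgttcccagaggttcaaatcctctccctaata
mt-Tw: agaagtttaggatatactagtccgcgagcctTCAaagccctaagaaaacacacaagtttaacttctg

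The 14 plus-strand tRNAs and the 8 minus-strand tRNAs differed in that library. Plus-strand tRNAs summed to 1391 counts in it and 116 to 319 in the other 5, 7.57 times their mean, while minus-strand tRNAs summed to 3028 against 1123 to 1897, 2.21 times their mean. Of the plus-strand tRNAs that were tested, mt-Ts2 stood at 16, mt-Tl1 at 12.8, mt-Tw at 11.0 and mt-Th at 7.75 times the mean CPM of the other 5, but mt-Tl2 at 2.96. Those on the minus strand were at 3.29 (mt-Ty, with 1 to 19 counts per library), 2.70 (mt-Tp), 2.51 (mt-Tc) and 1.23 (mt-Tn). The untested mt-Te, on the minus strand, had 32 counts in it and 1 to 4 in the others, and mt-Tt, on the plus strand, 50 against 0 to 5. Most of the minus-strand sum came from mt-Tp, mt-Tc and mt-Tn. Reads of a free tRNA and of an uncut precursor cannot be told apart in these counts. Whether the counting used strand was not stated, so antisense reads over a tRNA gene cannot be told apart from its own either.

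To ask what manganese in the alloy changed, the cells on CaP Zn0.8Mn were set against those on CaP Zn. The 12 tested mRNAs had a median log2 fold change of 2.54, beside 0.00 over all tested rows, and none of the 23 mitochondrial rows passed edgeR's quasi-likelihood test at an adjusted p of 0.05, where 0% of all rows did. DESeq2 and limma-voom also called 0 of them, and 6 were at an unadjusted p under 0.05, as were 1.57% of all rows. mt-Rnr2 had a log2 fold change of 3.00 (SE 1.05, adjusted p = 0.773), mt-Nd2 2.99 (SE 1.18), mt-Rnr1 0.87 (SE 0.39) and mt-Co1 0.78 (SE 0.44), all with that same adjusted p. Both CaP Zn0.8Mn libraries were above both CaP Zn libraries in 7 of the 23 rows (mt-Rnr1, mt-Rnr2, mt-Ty, mt-Co1, mt-Co2, mt-Atp6 and mt-Co3), as in 12.5% of all tested rows. Of these, mt-Ty was near the floor, with 1 and 4 counts in CaP Zn and 19 and 6 in CaP Zn0.8Mn. It reached 10 counts only in replicate 1 of CaP Zn0.8Mn and replicate 1 of CaP Zn0.8Mn0.1Li. Its place among the tested rows therefore depended on those libraries.

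Without replicate 1, a single CaP Zn0.8Mn library was left, assumed to vary like the other groups. The median of the mRNAs was then -0.08. No mitochondrial row was called by edgeR, DESeq2 or limma-voom, and each of these called almost no row of the whole table. At an unadjusted p under 0.05 were 3 of the 23 and 4.33% of all rows. Of these 3, mt-Atp6 had the lowest p, at a log2 fold change of 0.66 (SE 0.17, adjusted p = 0.817). Without replicate 2 instead, so that replicate 1 stood for the alloy, 22 of the 23 rows (all but mt-Tn) were called higher, where 59.3% of all rows were called in one direction or the other. The direction of 11 of the 23 rows, mt-Nd1, mt-Nd2 and mt-Cytb among them, turned when replicate 1 was left out.

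Cells on CaP Zn0.8Mn0.1Li and on CaP Zn gave 4 libraries, none of them the one that stood apart, and most mitochondrial rows had lower values on the lithium alloy. mt-Nd1 was at 772 and 548 CPM in CaP Zn and 402 and 424 in CaP Zn0.8Mn0.1Li, a log2 fold change of -0.68. mt-Nd2 was at 397 and 296 against 234 and 256 CPM (-0.50), and mt-Cytb at 668 and 524 against 412 and 449 (-0.47). The groups of these 3 mRNAs did not overlap, but replicate 1 of CaP Zn lay well above replicate 2 in each. mt-Co1, in contrast, was at 15394 and 17156 CPM in CaP Zn and 17300 and 15175 in CaP Zn0.8Mn0.1Li, a log2 fold change of -0.00 with overlapping groups.

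Over the 12 tested mRNAs the median log2 fold change was -0.26 (11 lower), beside 0.00 over all rows, and 21 of the 23 rows were lower. Both CaP Zn0.8Mn0.1Li libraries lay below both CaP Zn libraries in 15 of the 23 rows (7 mRNAs, both rRNAs and 6 tRNAs), a pattern seen in 16.8% of all tested rows. The rows share precursors and a genome, so they are not 23 separate observations. edgeR called none of the 23 with all 6 libraries in the fit, as did DESeq2 and limma-voom; none was at an unadjusted p under 0.05, as were 0.220% of all rows, and 0% of all rows were called. There the spread was shared with the library that stood apart, and the SE of the mt-Nd1 value was 1.08 (adjusted p = 1.00).

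With that library out of the fit the folds were nearly the same and the SEs smaller: 0.14 for mt-Nd1, 0.12 for mt-Nd2, 0.12 for mt-Cytb, 0.10 for mt-Rnr2 (-0.43), 0.11 for mt-Rnr1 (-0.27) and 0.18 for mt-Tc (-0.79). 15 rows were then at an unadjusted p under 0.05, 14 of them lower, against 5.02% of all rows, and edgeR called none, with a lowest adjusted p of 0.423, which mt-Nd1, mt-Rnr2 and mt-Tc shared. In these 5 libraries limma-voom called none and DESeq2 called mt-Nd2 and mt-Cytb, both lower, among the 1933 rows, 9 of them mitochondrial, to which its filter left an adjusted p, and 0.621% of which it called. A difference in mt-Co1 was not detectable, at -0.00 with an SE of 0.22. Among the other 5 libraries, replicate 1 of CaP Zn was the highest in 14 of the 23 tested rows, and in 3353 of all 13156, and a CaP Zn0.8Mn0.1Li library was the lowest in 21 of the 23 and in 4829 of all.

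**Figure D4:**
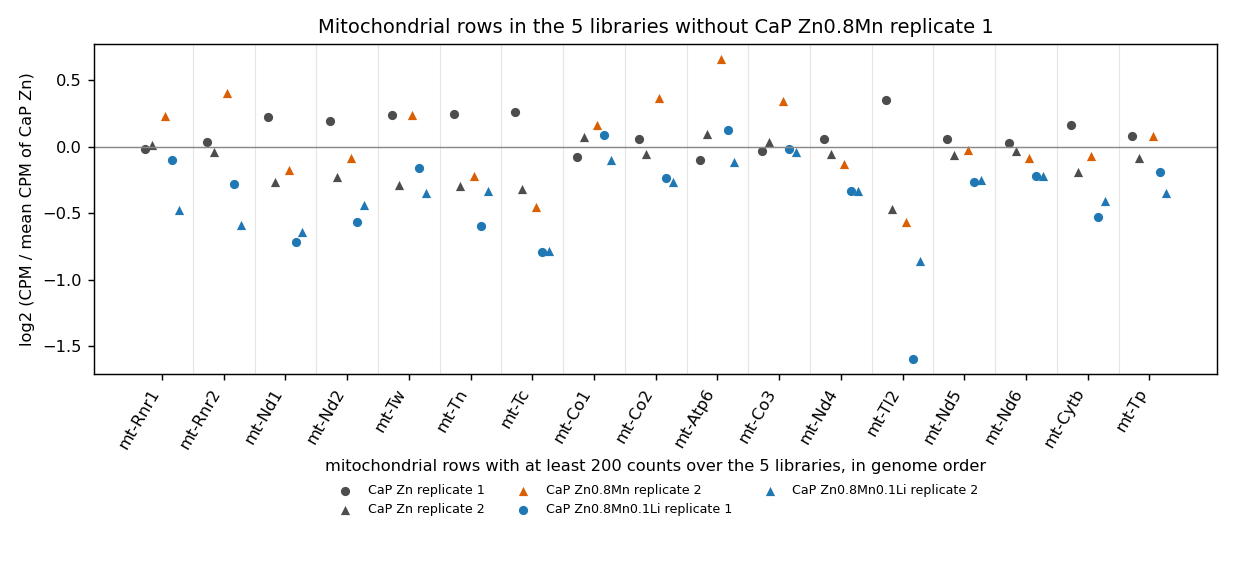
log2 of the CPM in each of 5 libraries over the mean CPM of CaP Zn, for the 17 tested mitochondrial rows with at least 200 counts over those libraries; colours mark the alloy and shapes the replicate. Both CaP Zn0.8Mn0.1Li libraries (blue) lie below both CaP Zn libraries (grey) for mt-Nd1, mt-Nd2, mt-Cytb and mt-Rnr2, while mt-Co1 and mt-Atp6 overlap.

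The question of what lithium added was put by comparing both manganese alloys. The CaP Zn0.8Mn0.1Li libraries lay below both of CaP Zn0.8Mn in 20 of the 23 rows, against 17.5% of all tested rows, and all 23 were lower in the mean. This comparison shares CaP Zn0.8Mn with the first and CaP Zn0.8Mn0.1Li with the second. The median of the mRNAs was -2.84 on the log2 scale, beside 0.00 over all rows. mt-Nd1 had a log2 fold change of -3.45 (SE 1.18), mt-Rnr2 of -3.43 (SE 1.07) and mt-Rnr1 of -1.15 (SE 0.39), each at an adjusted p of 0.680 in edgeR's test. None of the 23 rows was called by edgeR, DESeq2 or limma-voom, and edgeR called 0% of all rows. At an unadjusted p under 0.05 were 17 of the 23, all lower, and 2.40% of all rows.

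Without replicate 1 of CaP Zn0.8Mn, mt-Rnr2 was the one mitochondrial row that edgeR called: 236 CPM in the CaP Zn0.8Mn library left, against 147 and 118 in CaP Zn0.8Mn0.1Li, a log2 fold change of -0.83 (SE 0.12, adjusted p = 0.0197), where 0.0152% of all rows were called. DESeq2 and limma-voom called it as well, and it was also the only mitochondrial row they called. The call rests on a single CaP Zn0.8Mn library. mt-Rnr1 was lower by a similar pattern, 397 CPM against 315 and 243, without passing (-0.51, SE 0.13, adjusted p = 1.00). The median of the mRNAs was -0.38 there, and 9 of the 23 rows were at an unadjusted p under 0.05, all lower, beside 3.16% of all rows. Without replicate 2 instead, 21 of the 23 rows were called lower, beside 61.5% of all rows called in either direction.

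The nuclear partners of these transcripts did not move with them in replicate 1 of CaP Zn0.8Mn. Of 37 nuclear subunits of complex I, 36 lay below all other 5 libraries in it, with a median log2 ratio to their mean of -1.44, while the 7 mitochondrial subunits lay above all 5, with a median of 3.52. Of the nuclear ones, Ndufs1, a core subunit of the matrix arm, was at 111 CPM against 139 to 156. For complex IV, 11 of 11 nuclear subunits were below, with a median of -1.37: Cox4i1, a regulatory subunit, was at 276 CPM against 562 to 694, and Cox8a, a small subunit, at 111 against 383 to 450. For complex III the count was 8 of 9 (median -1.69), with Uqcrc1, a core protein, at 256 CPM against 282 to 294, and Uqcrq, a small subunit, at 46.8 against 290 to 328. For complex V it was 17 of 17 (-1.19), with Atp5b, the catalytic beta subunit, at 1182 CPM against 1813 to 2064, and Atp5a1, the alpha subunit, at 890 against 1048 to 1159. Complex II, whose subunits are all nuclear, had 4 of 4 below (-0.52), with Sdha, its flavoprotein, at 303 against 314 to 342 CPM, and Sdhd, a membrane anchor, at 95.9 against 216 to 253. Over all 13156 tested rows, 5508 lay below and 5525 above, with a median of 0.00.

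Of 77 tested mitochondrial ribosomal proteins, 68 lay below all other 5 libraries in replicate 1, with a median of -0.92: Mrpl45 was at 97.3 CPM against 139 to 157 and Mrpl9 at 93.4 against 110 to 133. The genes for transcription and upkeep of mitochondrial DNA had a median of -0.07 (7 of 24 above, 10 below), with the transcription factors Esrra at 37.7 CPM against 86.0 to 102 and Gabpa at 78.4 against 82.7 to 89.6. Those for RNA processing and decay had a median of 0.15 (14 of 25 above, 8 below). Lrpprc, which binds and stabilises mitochondrial mRNAs, was at 184 CPM in it and 99.4 to 105 in the others, while Grsf1, an RNA granule protein, was at 149 against 132 to 152. The 9 translation factors had a median of -0.23 (3 above, 4 below). Of these, Tufm, the elongation factor Tu, was at 86.9 against 136 to 157 CPM, and Gfm1, elongation factor G1, at 51.0 against 82.9 to 92.8. Mitochondrial stress genes had a median of -0.62 (10 of 12 below), with the chaperones Hspa9 at 961 CPM against 967 to 1106 and Hspd1 at 482 against 674 to 735. Among 8 tested mitophagy genes the median was 0.32 (4 above, 3 below). The receptor Sqstm1 was at 334 against 723 to 834 CPM, and Phb2, an inner-membrane prohibitin, at 244 against 332 to 362. Of 3 tested nuclear-retained RNAs, 2 lay above all other libraries in replicate 1 and 1 below, with a median of 0.15. Malat1 was at 3772 CPM in replicate 1, barely above the 2988 to 3764 of the others, and Neat1 at 138 against 235 to 390. The histone genes had a median of -0.58 (3 of 17 above, 7 below), with H1f0, a replacement linker histone, at 319 CPM against 219 to 244 and Hist1h1c, another linker histone, at 43.6 against 78.1 to 114. These lists and the macrophage markers differed in the same library as the mitochondrial rows, and their part in the mitochondrial values was not tested.

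Between alloys, edgeR with all 6 libraries called 0 members of any of these lists in any of the 3 comparisons. It called 0% of all tested rows there as well, so the 0 is not particular to these lists. In CaP Zn0.8Mn0.1Li against CaP Zn the medians of the nuclear lists were small, at 0.03 for complex I (28 of 37 higher), 0.08 for complex IV (11 of 11 higher), 0.05 for complex V (14 of 17 higher) and 0.03 for the ribosomal proteins (48 of 77 higher). The mitochondrial mRNAs stood at -0.26 in the same comparison. The 7 mitochondrial subunits of complex I had a median of -0.33 (7 lower) and the 3 of complex IV one of -0.03 (3 lower).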

How the data were processed

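Gene counts and FPKM values of 6 libraries were deposited by the authors, both as tables of the whole series. Aligner, counter, read length and strand setting: not given in the sources used here. Per the submitters' processing notes the build was mm9, but all 37 mitochondrial rows of the deposited count table have the positions of GENCODE M21, which is on GRCm38. FPKM was used as deposited, for levels per base only. Counts were fitted with edgeR 4.0.16 (R 4.3.3): filterByExpr, TMM factors, a group-means model over all 6 libraries (3 residual degrees of freedom), the robust quasi-likelihood test, two-sided, and Benjamini-Hochberg adjustment over 13156 rows with a threshold of 0.05. SE is the log2 fold change divided by the square root of F. CPM values are TMM-scaled. limma 3.58.1 and DESeq2 1.42.0 were alternatives, and settings and left-out libraries are given in the closing section. The fits were tested on simulated counts with 200 changed rows and the same spread in every library. That simulation held no library that stood apart, so it does not cover this feature of the data. Named were all mRNAs and rRNAs, tRNAs with a mean of at least 10 counts, the nuclear copies, and the 2 members of highest mean count in each list, 1 of which is not reported here; other tRNAs and genes named were chosen after their values were seen. The members and lists were chosen with earlier results of these data known. Shared windows are 50-base stretches found, in either orientation, in a GENCODE M21 transcript of another gene.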

Additional observations from a re-analysis of the deposited data

How the results depend on the processing

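With all 6 libraries, 0 mitochondrial rows were called in each of the 3 comparisons under other size factors, library totals, nuclear-gene scaling, DESeq2, limma-voom, no filter on low counts, a mean count of at least 100, fits of only the 4 libraries compared, and limma on FPKM with a pseudocount of 1 or 0.1. Leaving out 1 library moved the count over 0 to 22 in the manganese alloy against CaP Zn and over 0 to 21 in the lithium against the manganese alloy, and it stayed at 0 in the lithium alloy against CaP Zn. The 22 and the 21 came from the fits without replicate 2 of CaP Zn0.8Mn, where 59.3% and 61.5% of all rows were called. They are therefore not particular to the mitochondrial rows. The medians of the mRNAs ranged from -0.075 to 3.39 for the manganese alloy against CaP Zn. For the lithium against the manganese alloy they ranged from -3.69 to -0.38. On the 5 libraries without replicate 1 of CaP Zn0.8Mn, the alternatives were chosen after seeing the data. There DESeq2 called 2 for lithium alloy against CaP Zn, beside 12 of the 1933 rows to which it left an adjusted p. DESeq2, limma-voom and nuclear-gene scaling each called 1 between lithium and manganese alloy, beside 3, 3 and 2 of all rows. Leaving out replicate 1 of CaP Zn as well called 1 (mt-Rnr2 higher), 2 (mt-Nd1 and mt-Rnr2 lower) and 7 rows, beside 43, 47 and 40 of all rows.

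Replicate numbers are shared between groups, and the deviations of the first replicates correlated at 0.26, -0.16 and -0.09. With 2 libraries per group this cannot show whether the replicates were paired. With a replicate block 0 mitochondrial rows were called and the medians were 2.09, -0.28 and -2.36. Of the fold changes the report prints, those that turned sign were mt-Nd2 for manganese alloy against CaP Zn (-0.082 to 3.89 leaving out 1 library) and mt-Co1 for lithium alloy against CaP Zn (-0.11 to 0.085, and 0.00 with a mean count of at least 100). Shares depend on the total used, by construction: of the FPKM total, mRNAs were 3.53%, 10.6% and 3.18% in CaP Zn, CaP Zn0.8Mn and CaP Zn0.8Mn0.1Li, rRNAs 0.122%, 0.459% and 0.0937%, and tRNAs 0.414%, 0.850% and 0.287%. Over protein-coding and mitochondrial rows only, mRNAs were 2.06% in CaP Zn and tRNAs 0.00797% in CaP Zn0.8Mn0.1Li. Depth limits the tRNAs, mt-Atp8, mt-Nd3 and mt-Nd4l most.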

Other observations

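In the 5 libraries without replicate 1 of CaP Zn0.8Mn, replicate 2 of that alloy was the highest in 6 of the 23 tested rows: mt-Rnr1, mt-Rnr2, mt-Co1, mt-Co2, mt-Atp6 and mt-Co3. mt-Atp6 was at 25.9 CPM in it and at 15.2 to 17.9 in the other 4, and its copy Gm10925 at 30.3 and at 19.0 to 23.8. These rows were picked after their values were seen. How often that library was the highest among all tested rows was not counted, so the 6 are a description only. Without replicate 1, edgeR's adjusted p for mt-Atp6 in CaP Zn0.8Mn was 0.817 against CaP Zn and 1.00 against CaP Zn0.8Mn0.1Li.

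3 mitochondrial mRNAs, mt-Co3, mt-Nd4 and mt-Cytb, end in an incomplete stop codon that the poly(A) tail completes in mammals. The last 30 bases of each gene in GENCODE M21 are shown, with the encoded part of the stop codon in capitals.
mt-Co3: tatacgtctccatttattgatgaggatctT
mt-Nd4: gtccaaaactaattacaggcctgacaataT
mt-Cytb: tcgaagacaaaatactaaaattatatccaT
Their ratios in replicate 1 of CaP Zn0.8Mn, 14.1, 11.5 and 14.5 times the mean CPM of the other 5 libraries, lay within those of the tested mRNAs with a full stop codon, from 2.27 for mt-Co1 to 17.2 for mt-Nd2.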
